A study of Mus musculus with 2 samples.

Results

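Growth hormone acts on the liver through a chain of genes, and 10 genes of that chain were followed here: Ghr, Stat5b, Socs2, Cish, Cux2, Bcl6, Igf1, Igfals, Igfbp2 and Egfr. They were chosen by name for their roles as receptor, transducer, feedback inhibitor, sex-linked regulator, hormone output and growth factor receptor. The choice was made with earlier results of these data known. All 10 were found among the 32285 genes of the deposited matrices. The data are UMI counts (unique molecular identifiers, 1 per captured RNA molecule) from 2 droplet libraries of mouse liver, each from 1 mouse. Both mice were 11 weeks old, bore no tumours and carried floxed alleles of Glul, the gene of glutamine synthetase. The control mouse received an AAV8 virus carrying GFP, and the GS-KO mouse an AAV8 virus carrying Cre, which removes the floxed sequence. The labels do not give the promoter that drove Cre. At 2 weeks after the virus each liver was digested with 0.3 mg/mL collagenase II, and both hepatocytes and purified non-parenchymal cells were taken. The assay appears in the labels as single-cell and also as single-nucleus sequencing.

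In hepatocytes, growth hormone binds the receptor encoded by Ghr, the kinase bound to that receptor phosphorylates STAT5 proteins such as the product of Stat5b, and these enter the nucleus and bind DNA. STAT5 switches on Igf1, which encodes the circulating growth factor IGF-1, and Socs2 and Cish, whose products damp the same signal. Pituitary growth hormone is released in pulses in male rodents and more continuously in females, and the resulting patterns of STAT5 activity set many sex differences of liver genes, with the repressors CUX2 (higher in female liver) and BCL6 (higher in male liver) taking part.

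The letters TTCNNNGAA, the palindromic core of the DNA sequence that STAT proteins bind, were searched in 300-base promoter windows from RefSeq on GRCm38.p6, each running from 250 bases before to 50 bases after an annotated start. The motif reads the same on both strands. Windows were held for 9 of the 10 genes, with Socs2 the other, and 5 of their 16 windows (31.2%) held it, against 2726 of all 32851 windows (8.30%). At least 2 copies stood in 2 of the 16 windows (12.5%) and in 150 of all windows (0.457%). The windows of Cish, Bcl6 and Igfals are shown because these were the genes with a match. Where a gene had several windows, the one with most copies is printed, and otherwise the one whose copy lies nearest the start. Capitals mark the motif, and each line runs 5′ to 3′ on the gene's own strand. In Cish (chr9:107296409-107296708, plus strand) the copies begin 0 and 11 bases from the start, in Bcl6 (chr16:23981234-23981533, minus strand) 168, 122 and 88 bases before it, and in Igfals (chr17:24877981-24878280, plus strand) 58 bases before it.
Cish: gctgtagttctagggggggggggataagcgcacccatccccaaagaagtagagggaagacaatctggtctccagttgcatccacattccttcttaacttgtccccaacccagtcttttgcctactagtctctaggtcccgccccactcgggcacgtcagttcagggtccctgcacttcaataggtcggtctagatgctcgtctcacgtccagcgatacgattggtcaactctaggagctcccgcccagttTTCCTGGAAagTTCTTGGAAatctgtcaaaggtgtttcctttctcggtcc
Bcl6: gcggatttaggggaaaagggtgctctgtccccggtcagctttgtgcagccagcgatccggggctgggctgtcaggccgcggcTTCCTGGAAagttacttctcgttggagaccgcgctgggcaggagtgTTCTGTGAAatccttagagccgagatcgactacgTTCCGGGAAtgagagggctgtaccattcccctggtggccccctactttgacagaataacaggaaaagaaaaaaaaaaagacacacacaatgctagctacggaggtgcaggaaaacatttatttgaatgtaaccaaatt
Igfals: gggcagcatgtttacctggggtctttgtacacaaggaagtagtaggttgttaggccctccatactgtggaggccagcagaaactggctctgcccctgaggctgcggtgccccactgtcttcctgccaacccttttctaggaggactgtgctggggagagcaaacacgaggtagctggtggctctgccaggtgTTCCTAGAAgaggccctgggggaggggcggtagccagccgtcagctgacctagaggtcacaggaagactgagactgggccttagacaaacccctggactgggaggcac
A match describes these letters only, and no binding was measured.

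Levels are given as CPM, the UMIs of a gene per 1000000 UMIs of all summed barcodes of a size class. Large barcodes held 1000 UMIs or more, medium ones at least 500 but under 1000, and small ones at least 200 but under 400. There were 1703 control and 1834 GS-KO large barcodes with 2182260 and 2443469 UMIs in all, 11989 and 10037 medium ones with 7923353 and 6699943 UMIs, and 116552 and 143687 small ones with 38070357 and 43036904 UMIs. The share of RNA from outside intact cells was not measured. As an alternative, free RNA was taken off each large barcode at the median size of all barcodes, 27.5% of the control and 22.8% of the GS-KO UMIs, and values that this moved by over 1.5 times or past 2-fold are given below. Malat1, a nuclear RNA, stood at 19613 and 37630 CPM in the large barcodes and at 1709 and 1365 CPM in the small ones, control value first. Of all barcodes, 8108 occurred in both libraries, 1 of them as a large barcode in both. Each group is 1 mouse, so no test between groups was possible. Intervals in parentheses are exact 95% Poisson ones for levels and conditional ones for ratios, and cover counting error only. Log2 ratios are GS-KO over control. In these sums, fewer cells with a transcript and less of it per cell cannot be told apart. A gene is called higher or lower where its CPM differed 2-fold or more.

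Glul, the targeted gene, was looked at as a check of the labels. It stood at 124 CPM in control and 31.5 CPM in the GS-KO large barcodes, a log2 ratio of -1.97, and at -3.53 in small barcodes. Glul is a pericentral gene, and other pericentral markers summed to 8613 and 3718 CPM in large and to 15684 and 5967 CPM in small barcodes. Periportal markers summed to 9206 and 7033 CPM in large barcodes. How far the Glul values follow this zonal difference was not tested. The labels give no sex, and in the large barcodes the Y-linked Ddx3y stood at 69.7 and 83.1 CPM with 2 and 1 UMIs of Xist, so both libraries carry male RNA. Hepatocyte markers summed to 54882 and 42269 CPM in the large barcodes. Markers of Kupffer cells, the macrophages of the liver, summed to 88.0 CPM in the control library and to 565 CPM in the GS-KO library. Neutrophil and monocyte markers summed to 18.3 and 155 CPM, with S100a8, S100a9, Retnlg and Ccr2 at 0 in the control library. The clock genes Arntl (1.83 and 116 CPM) and Dbp (73.3 and 1.64 CPM) also differed. The hour of sampling is not in the labels, so it and the virus cannot be told apart in any value below.

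In the large barcodes 4 of the 10 genes were lower in the GS-KO library (Cux2, Socs2, Igf1 and Igfals) and 2 were higher (Bcl6 and Stat5b), with Ghr, Cish, Igfbp2 and Egfr within 2-fold. Of all 10192 genes measured there, 5.6% were lower and 12.8% higher by the same rule, 18.4% in either direction. Because the 10 genes were chosen with earlier results of these data known, their counts and ranks describe them and test nothing. The median log2 ratio of the 10 genes was -0.76, against 0.04 over all genes. Cux2 had the lowest ratio of all 10192 genes, 40 genes stood below Socs2 and 88 below Igf1, and 210 stood above Bcl6. In medium barcodes 5 genes were lower (background 3.7%) and 2 higher (background 15.6%, and 19.3% in either direction), and Cish joined the lower group. In small barcodes 3 were lower (Cux2, Socs2 and Cish; background 4.25%) and 1 was higher (Bcl6; background 13.2%, and 17.5% in either direction). The median log2 ratio over all genes was 0.15 and -0.01 in these classes.

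**Figure D1:**
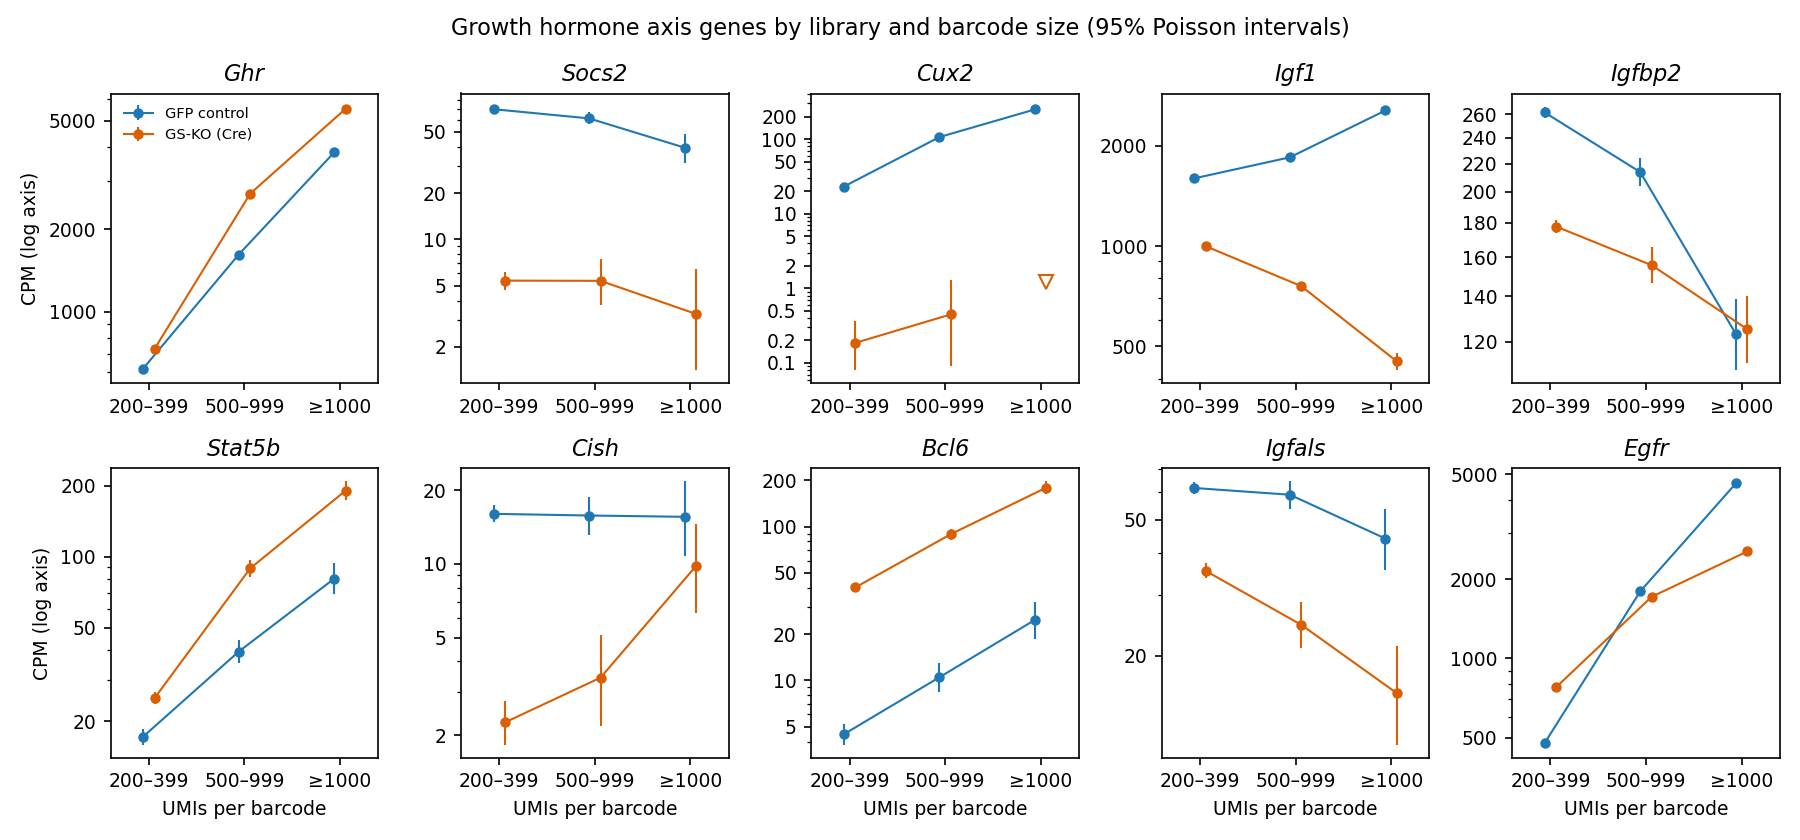
Level of each of the 10 genes (CPM, log axis) in the GFP control and GS-KO libraries for small, medium and large barcodes; bars are 95% Poisson intervals and the open triangle marks Cux2 at 0 UMIs, placed at the level of 3 UMIs. Cux2, Socs2, Igf1 and Igfals lie lower and Bcl6, Stat5b and Ghr higher in the GS-KO library in every class, while the lines of Egfr and of Igfbp2 cross.

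The growth hormone receptor transcript was higher in the GS-KO library, by less than 2-fold. Ghr (chr15:3317760-3583492, minus strand, GRCm38 in the GENCODE M21 annotation, as for all gene positions here) stood at 3828 CPM (8353 UMIs, 3746 to 3911) in the control large barcodes and at 5529 CPM (13511 UMIs, 5437 to 5623) in the GS-KO ones. The log2 ratio was 0.53 (0.49 to 0.57), and the intervals of the levels did not overlap. It was 0.74 in medium barcodes and 0.24 in small ones. At 1000 UMIs per barcode, after thinning each barcode to that number, Ghr was found in 91.1% of control and 96.9% of GS-KO large barcodes. Ghr spans 266 kb.

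Stat5b, which encodes one of the STAT5 proteins that carry the signal, differed more between the libraries. It stood at 80.7 CPM (176 UMIs, 69.2 to 93.5) in control and 191 CPM (466 UMIs, 174 to 209) in the GS-KO large barcodes. The log2 ratio was 1.24 (0.99 to 1.50), so the lower bound lies at the 2-fold line. The ratio was 1.17 in medium barcodes and 0.54 (0.40 to 0.69) in small ones, where levels were 17.2 and 25.1 CPM. Thinned large barcodes held a Stat5b UMI in 7.81% of control and 16.6% of GS-KO cases. Stat5b lies at chr11:100780731-100850724.

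Both feedback genes were lower in the GS-KO library, Socs2 in every class and Cish in the smaller barcodes. Socs2 (chr10:95385362-95417180), which encodes a suppressor of cytokine signalling induced by growth hormone, stood at 39.4 CPM (86 UMIs) in control and 3.27 CPM (8 UMIs) in the GS-KO large barcodes. The log2 ratio was -3.51 (-4.85 to -2.55), and the level intervals (31.5 to 48.7 and 1.41 to 6.45) lay far apart. In the larger counts of the small barcodes, 2668 and 232 UMIs, it was -3.70 (-3.90 to -3.51). A Socs2 UMI was found in 3.88% and 0.327% of thinned large barcodes. Barcodes of 2000 UMIs or more, 62 and 116 of them, held 3 Socs2 UMIs in each library, under the 20 UMIs needed for a ratio.

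Cish (chr9:107296026-107302784), a second STAT5-induced inhibitor of the receptor, gave a different answer by barcode size. The large barcodes held 34 UMIs in the control (15.6 CPM, 10.8 to 21.8) and 24 in the GS-KO library (9.82 CPM, 6.29 to 14.6). These intervals overlap, and the log2 ratio of -0.66 (-1.48 to 0.13) includes 0, so a difference of this size was not detectable at this depth. In medium barcodes the levels were 15.8 and 3.43 CPM (log2 ratio -2.17, -2.91 to -1.55), and in small ones they were 16.0 and 2.25 CPM (-2.82, -3.15 to -2.52). The control level was nearly the same in all 3 classes, and the GS-KO level was 4.36-fold higher in the large than in the small barcodes.

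The regulators CUX2 and BCL6 differed in opposite directions in the transcript data, with Cux2 lower and Bcl6 higher in the GS-KO library. Cux2 (chr5:121856366-122050102), a repressor higher in female liver, stood at 250 CPM (545 UMIs, 229 to 272) in the control large barcodes, and no UMI of it was found in the GS-KO ones. A count of 0 there allows up to 1.51 CPM by the Poisson interval. Set against 3 UMIs over the class as the floor, Cux2 was at least 203-fold lower, and the exact 95% interval of the ratio begins at 165-fold lower. In medium barcodes 3 UMIs were found in the GS-KO library against 843, a level of 106 against 0.448 CPM, and the control was 238-fold higher (81.0 to 1155). The small barcodes held 880 and 8 UMIs, 23.1 against 0.186 CPM. Among thinned large barcodes, 355 of 1703 in the control (20.8%) and 0 of 1834 in the GS-KO library held a Cux2 UMI. The count of 0 allows a share of up to 0.164% at 3 counts and of up to 0.201% by the exact Clopper-Pearson 95% interval.

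Bcl6 (chr16:23965052-23988852), which encodes a repressor of STAT5 target genes, stood at 24.7 CPM (54 UMIs, 18.6 to 32.3) in control and at 179 CPM (438 UMIs, 163 to 197) in the GS-KO large barcodes. The log2 ratio was 2.85 (2.45 to 3.29). In the smaller classes the ratio was 3.08 (10.5 against 89.3 CPM) and 3.17 (4.47 against 40.2 CPM). The level intervals did not overlap in any of the 3 classes. A Bcl6 UMI was present in 2.29% of thinned large barcodes from the control and 16.4% from the GS-KO library.

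**Figure D2:**
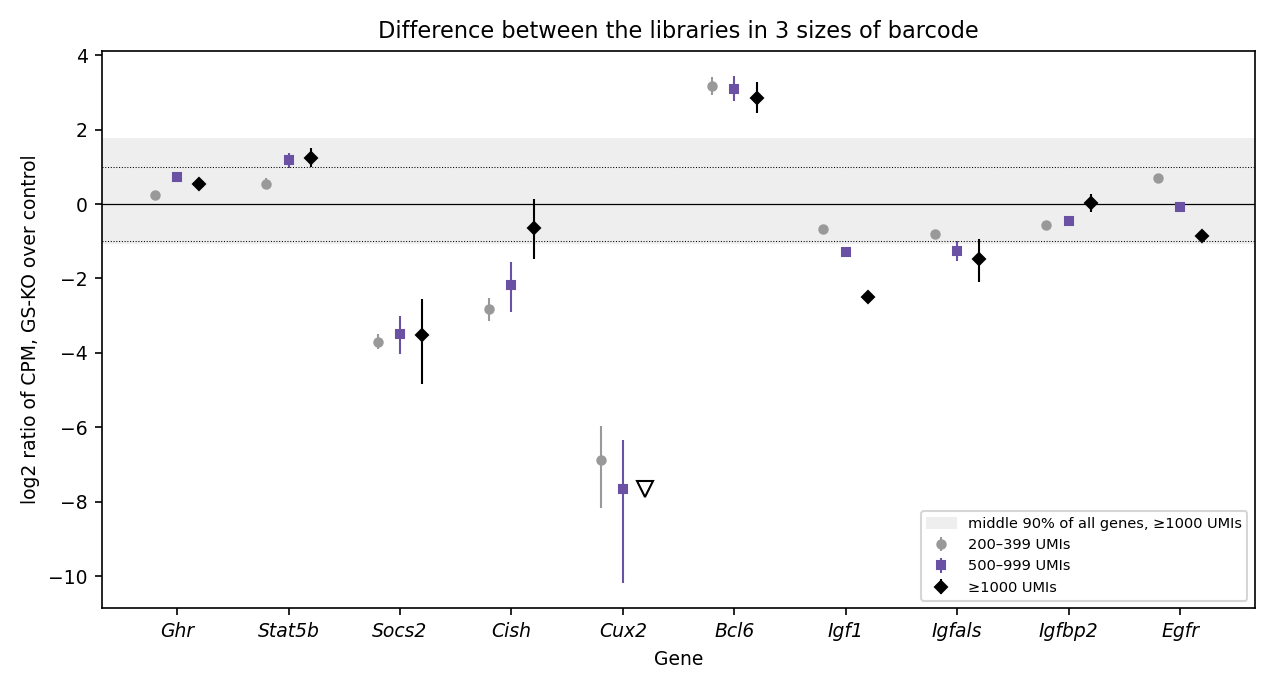
Log2 ratio of CPM, GS-KO over control, for each gene in the 3 size classes with 95% intervals; dotted lines mark 2-fold, the grey band holds the middle 90% of all genes in large barcodes, and the open triangle is the bound for Cux2. Igf1 and Egfr spread with barcode size, from -0.68 to -2.50 and from 0.70 to -0.86, while Socs2 lies between -3.70 and -3.49 and Bcl6 between 2.85 and 3.17.

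Of the IGF outputs, Igf1 was lower in every class, though by less than 2-fold in small barcodes, and the difference grew with barcode size. Igf1 (chr10:87858265-87937042), the hormone made in hepatocytes in response to growth hormone, stood at 2549 CPM (5563 UMIs, 2483 to 2617) in control and 451 CPM (1102 UMIs, 425 to 478) in the GS-KO large barcodes. The control level was 5.30 to 6.04-fold higher, a log2 ratio of -2.50 (-2.59 to -2.41), or -3.33 with free RNA taken off. In medium barcodes the levels were 1845 and 758 CPM (-1.28), and in small ones the control read 1596 CPM and the GS-KO library had a 95% interval of 989 to 1008 CPM (-0.68). Within the control library the large barcodes stood at 1.60 times the level of the small ones, and within the GS-KO library at 0.452 times. Igf1 was found in 89.6% of thinned control and 35.5% of thinned GS-KO large barcodes. The antisense gene Igf1os overlaps it with 82 and 25 UMIs in the large barcodes, and whether counting used strand is unknown here.

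Igfals (chr17:24865997-24882010) encodes the protein that holds IGF-1 in its circulating complex. It was lower in the GS-KO library in all classes, though by less than 2-fold in small barcodes. It stood at 44.0 CPM (96 UMIs, 35.6 to 53.7) against 15.6 CPM (38 UMIs, 11.0 to 21.3) in the large barcodes, a log2 ratio of -1.49 (-2.08 to -0.94). The ratio was -1.26 in medium and -0.80 in small barcodes. Barcodes of 2000 UMIs or more held 3 and 5 Igfals UMIs, too few for a ratio. Igfbp2 (chr1:72824503-72852474), an IGF-binding protein, stood at 123 and 125 CPM in the large barcodes, a log2 ratio of 0.02 (-0.22 to 0.26). With free RNA taken off it was 0.63, and in barcodes of 2000 UMIs or more, with 12 and 38 UMIs, also 0.63 (-0.29 to 1.75). The intervals of Igfbp2 overlapped there, but in the smaller classes it was lower, at -0.46 and -0.56, within 2-fold.

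The EGF receptor is a hepatocyte growth factor receptor whose transcript responds to growth hormone. Egfr (chr11:16752203-16918158) stood at 4620 CPM (10083 UMIs, 4531 to 4712) in control and 2550 CPM (6230 UMIs, 2487 to 2614) in the GS-KO large barcodes, a log2 ratio of -0.86 (-0.90 to -0.81). In medium barcodes the ratio was -0.07 (1799 against 1716 CPM), and in small ones the direction turned to 0.70 (478 against 778 CPM). Egfr was found in 91.0% and 82.5% of thinned large barcodes. With free RNA taken off, the large-barcode value was -1.01, just past 2-fold. Egfr was thus lower, nearly equal or higher in the GS-KO library by barcode size, within 2-fold in each class when free RNA was left in. The medium value was 0.01 with barcodes holding other-cell markers left out.

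Barcode size tracked the level of some of these genes more than of others. In the control library, the fold from small to large barcodes was 6.19 for Ghr, 9.68 for Egfr, 10.8 for Cux2, 5.54 for Bcl6 and 4.69 for Stat5b. It was 0.562 for Socs2, 0.712 for Igfals, 0.471 for Igfbp2 and 0.972 for Cish, at or under the level in small barcodes. The annotated spans of the first group were 266 kb for Ghr, 194 kb for Cux2, 166 kb for Egfr, 70.0 kb for Stat5b and 23.8 kb for Bcl6. In the other group Socs2 spans 31.8 kb and Igfbp2 28.0 kb, both more than Bcl6. Igf1, in neither group, spans 78.8 kb, more than Stat5b, with a fold of 1.60 in the control and 0.452 in the GS-KO library. For the genes at or under their small-barcode level, RNA of intact cells and free RNA cannot be told apart.

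**Figure D3:**
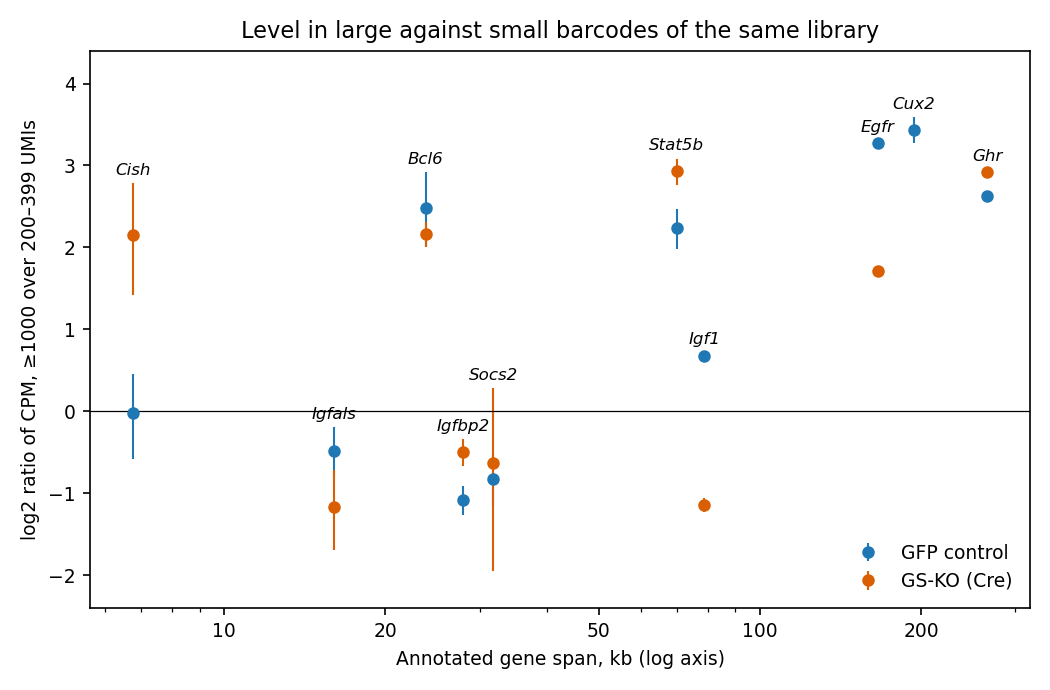
Log2 fold of the level in large barcodes over that in small barcodes, for each gene in each library, against its annotated span (kb, log axis), with 95% intervals; Cux2 has no GS-KO point because it held 0 UMIs in the large class. Ghr, Egfr, Stat5b and Bcl6 lie above 0 in both libraries, and Igf1 is above 0 in control and below 0 in the GS-KO library.

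The 6 genes called in large barcodes kept their direction when barcodes were chosen by other properties. With barcodes left out that held at least 2 UMIs of markers of another cell type (1549 control and 1535 GS-KO barcodes kept), the log2 ratios were 2.94 for Bcl6, -3.25 for Socs2, -2.55 for Igf1, -1.35 for Igfals, 1.20 for Stat5b and 0.53 for Ghr. Cux2 then had 498 control and 0 GS-KO UMIs. The libraries differed in nuclear RNA content, and among barcodes under the pooled median Malat1 share (2.63% of UMIs, 1356 control and 412 GS-KO barcodes) the ratios were 2.74 for Bcl6, 1.04 for Stat5b, -2.54 for Socs2 and 0.25 for Ghr. Igf1 was at -2.11, Igfals at -1.17 and Egfr at -0.91 under that share. At or over that share (347 and 1422 barcodes) the ratios were 2.60 for Bcl6, 1.12 for Stat5b, -3.85 for Socs2 and 0.49 for Ghr. There Igf1 was at -2.77, Igfals at -1.40 and Egfr at -1.08. Cux2 had 422 control UMIs under that share and 123 at or over it, with 0 GS-KO UMIs in both. Igfbp2 was at -0.19 below that share and 0.42 at or over it. For Bcl6, the 2.94 without the other-cell barcodes compares with 2.85 over all large barcodes. In the 154 control and 299 GS-KO barcodes with such markers alone it was 2.08 (1.04 to 3.54). Whether RNA of other cells adds to these values was not tested.

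Barcodes with Kupffer markers were looked at for the same genes, since Kupffer cells lack much of the hepatocyte programme. Of 35 such control barcodes, thinned alike, 22.9% held a Cux2 UMI (10.4 to 40.1%) and 82.9% an Igf1 UMI, close to the 20.8% and 89.6% of all control barcodes. Of 177 GS-KO ones, 13.0% held a Bcl6 UMI and 40.7% an Igf1 UMI, against 16.4% and 35.5% of all. Median depths were 1199 and 1261 UMIs in these barcodes and 1190 and 1209 in all large ones. With shares this close, the share of barcodes with a UMI is not read here as a share of expressing cells.

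Hepatocytes differ along the lobule from the central vein to the portal tract, and the large barcodes were ranked within each library by the balance of pericentral and periportal markers and divided into 3 equal groups. Egfr was higher toward the portal end in both libraries, from 3653 to 5502 CPM in the control (log2 0.59, 0.52 to 0.66) and from 1838 to 3240 CPM in the GS-KO library (0.82, 0.73 to 0.91). Igf1 followed, from 2175 to 2883 CPM (0.41) and from 354 to 545 CPM (0.62). Cux2 in the control went from 202 to 275 CPM (0.44, 0.13 to 0.76). Igfbp2 was 146 and 114 CPM at the 2 ends in the control (-0.35, -0.79 to 0.07) and 87.6 and 162 CPM in the GS-KO library (0.88, 0.46 to 1.32). Ghr was nearly level, at 0.06 and -0.10. No gene that could be compared differed 2-fold between the ends. In the GS-KO library Cux2 had no UMIs and Socs2 had 2 at each end, too few to compare, and Cish and Igfals had 16 UMIs or fewer at an end. The score ranges of the libraries do not match, so the ends were not compared between them.

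**Figure D4:**
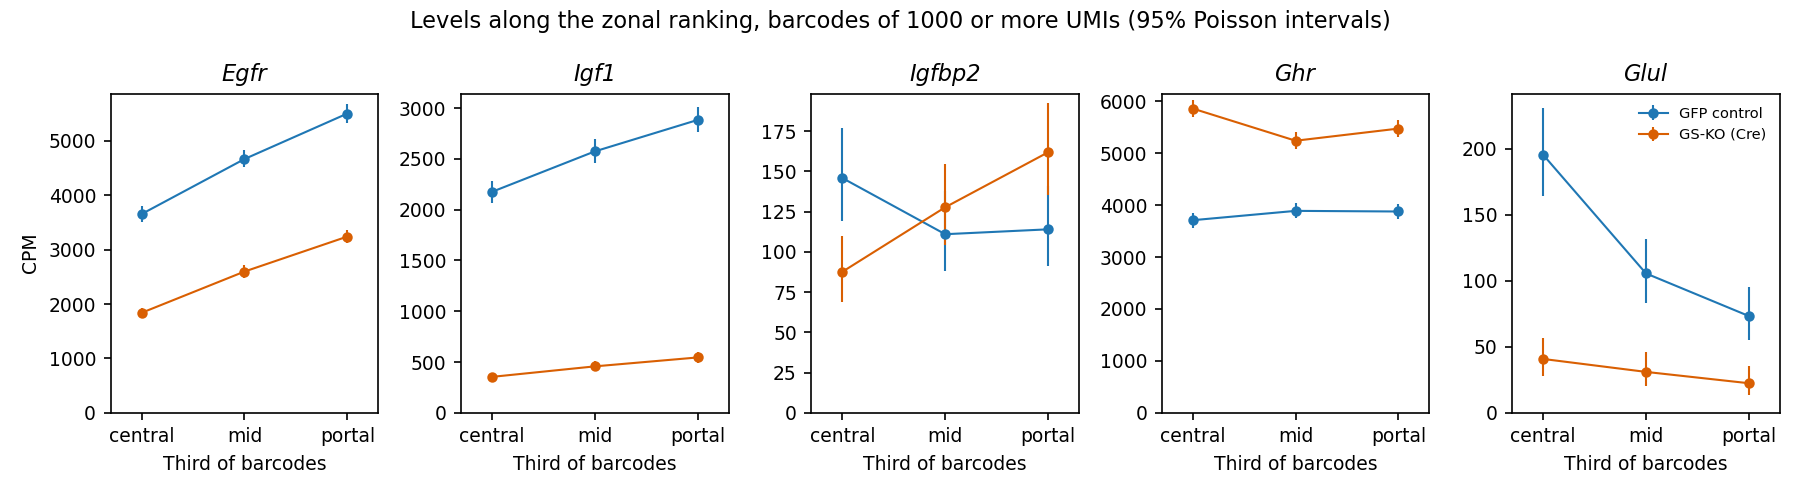
Level (CPM) of Egfr, Igf1, Igfbp2 and Ghr, with Glul as reference, in 3 equal groups of large barcodes ranked from pericentral to periportal within each library, with 95% intervals. Egfr and Igf1 are higher in the portal than in the central group of both libraries. Glul is lower in the control, and in the GS-KO library its log2 ratio of -0.85 rests on 34 and 18 UMIs with an interval that reaches 0.

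Genes around the 10 were taken from 5 lists of pathway and sex-biased genes, measured where at least 20 UMIs were held. In the growth hormone signalling list 4 of 22 measured genes were higher and 3 lower in the large barcodes (against 12.8% and 5.6% of all genes), with a median of 0.06. Stat5a, the other STAT5 gene, was higher at 7.79 against 34.8 CPM (log2 2.13). The transcription factor Onecut1, which is downstream of growth hormone, was lower (418 against 19.6 CPM, -4.40), as was the prolactin receptor Prlr (1364 against 293 CPM, -2.22). Of 7 measured IGF system genes, Igfbp1 was higher (153 against 489 CPM) and Igf1r lower (28.0 against 10.6 CPM). Of 10 measured EGF family genes 4 were higher and 0 lower, among them Tgfa (17.0 against 43.0 CPM) and Erbb3 (31.2 against 73.3 CPM).

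Many sex-biased liver genes are known targets of STAT5, CUX2 or BCL6, and 2 lists of them were summed up in the same way. The female-biased list held 31 genes, of which 18 were measured in large barcodes. Of these 18, 12 were lower and 3 higher (against 5.6% and 12.8% of all genes). Their median log2 ratio was -2.80, the same when genes at 0 were set to their bound. A gene near 0 in the GS-KO library could be measured only through its control UMIs, so the share lower and the median do not test the list. Cyp4a10 (121 against 1.23 CPM) and Tox (684 against 65.9 CPM) were lower, and Sult1e1, an oestrogen sulfotransferase, was higher (2.29 against 27.8 CPM). Among male-biased genes 3 of 25 were higher and 2 lower (against 12.8% and 5.6%), with a median of 0.41, Elovl3 being higher (5.04 against 81.4 CPM). Cytochrome P450 and Mup genes have near-identical copies whose reads counting can split, so their single values are uncertain. In small barcodes 23 of 29 female-biased genes were lower (against 4.25% of all genes), and 7 of 28 male-biased genes were higher (against 13.2%).

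**Figure D5:**
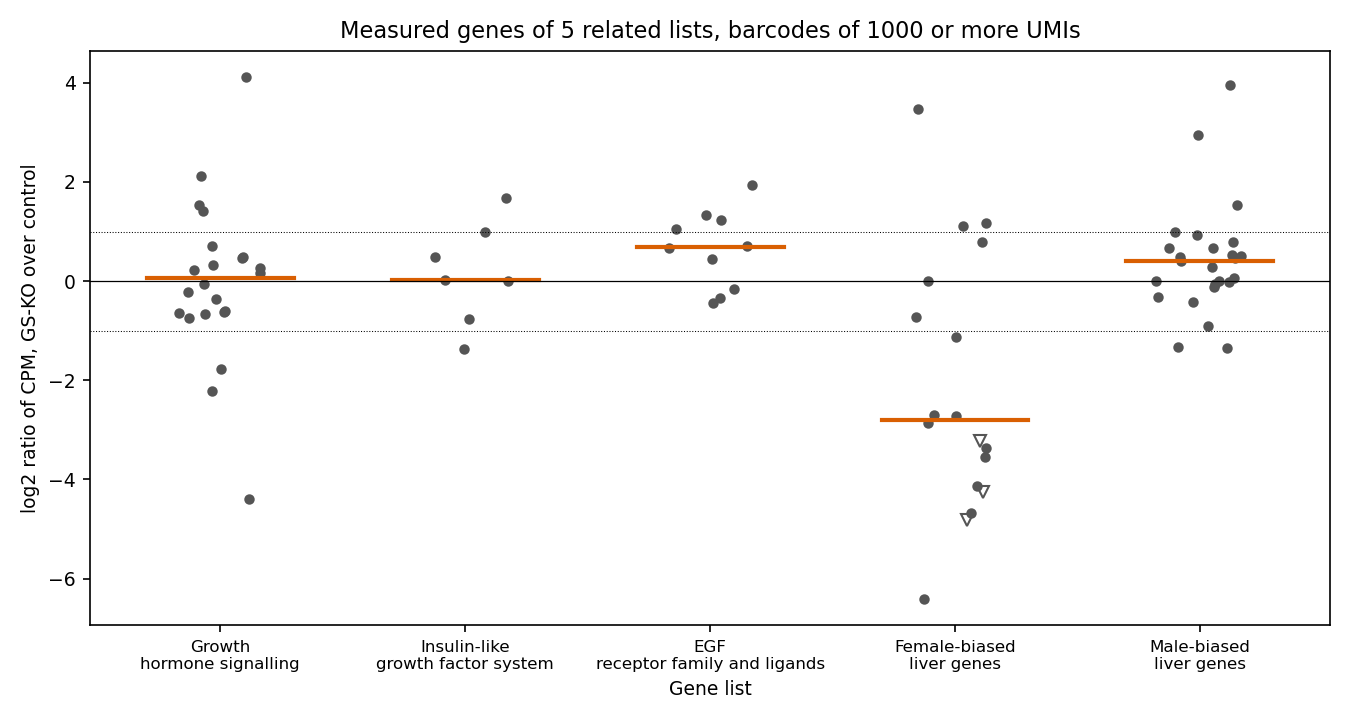
Log2 ratio of CPM, GS-KO over control, for each measured gene of 5 lists in large barcodes; orange bars are medians, dotted lines mark 2-fold and open triangles are bounds for genes at 0 UMIs in the GS-KO library. The female-biased list has its median at -2.80 and the male-biased list at 0.41.

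Over the 6 sums of 2 libraries and 3 size classes, the genes whose centred log2 levels lay nearest to a member among 11965 candidates were named. For Socs2 these were A1bg, Acot1 and Cyp2a4, for Cish Nr1d2, Susd1 and Pim3, and for Cux2 Noct, Usp2 and Mfsd2a at distances of 1.94 to 2.77, far from it. For Bcl6 they were Efna1, Insc and Apobec1, and for Igf1 Ces1d, Gsta3 and Aqp11. For Ghr, Dglucy was nearest at a distance of 0.115, for Stat5b Mettl15, for Igfals Ndufa12, for Igfbp2 Mrpl18 and for Egfr Pspc1. The 6 sums share libraries and depth, so likeness describes these sums only.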

How the data were processed

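UMI counts were deposited by the authors as 1 matrix per library, with genes by barcodes as whole numbers, not normalized; per the file headers the counter was Cell Ranger 8.0.0, and the submitters' processing notes name mm10. The choice of barcodes and the use of introns and strand were not given in the sources used here. Each of the 2 libraries is 1 mouse.

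Raw UMIs were summed over small (200 to under 400 UMIs), medium (500 to under 1000) and large (1000 or more) barcodes and scaled to CPM. Ratios have 0.5 UMIs added. A gene was measured with at least 20 UMIs over both libraries, a gene at 0 was set to 3 UMIs for bounds, and shares of barcodes are after thinning to 1000 UMIs (seed 1). No doublet caller was run, so doublets are untreated. With 1 mouse a group no test was made, and intervals (95%, exact Poisson, conditional or Clopper-Pearson) cover counting error only. The interval code was tested on simulated data. Likeness is the Euclidean distance of log2(CPM + 1) values, for genes of at least 100 UMIs. Named list genes are the up to 5 highest and 5 lowest past 2-fold, ranked with 5 CPM added, from which examples are given. The genes and lists were chosen with earlier results of these data known. Alternatives were other scalings, stricter barcode limits, barcodes without other-cell markers or by Malat1 share, and free RNA taken off. Software comprised matplotlib 3.10.9, scipy 1.17.1, pandas 2.3.3 and numpy 2.4.6 in Python 3.11.15.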

Additional observations from a re-analysis of the deposited data

Results flagged for a closer look

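Barcodes of 400 to under 500 UMIs and of under 200 UMIs lie outside the classes above and were summed after the data were seen. In the first, Stat5b stood at 44.8 CPM and Bcl6 at 57.0 CPM in the GS-KO library, against 18.7 and 5.32 CPM in the control. In barcodes of under 200 UMIs Bcl6 stood at 41.5 CPM, against 6.46 CPM, while Stat5b stood at 25.6 against 25.0 CPM (log2 0.02, -0.64 to 0.73). The first 3 GS-KO levels were singled out because they were 2-fold or more above the control library in data the comparisons did not use, and the cause was not tested. Lower levels were not singled out by this rule. In the first of these classes Cux2 (log2 -6.22), Socs2 (-3.22), Cish (-2.68) and Igfals (-1.06) were 2-fold or more lower. Under 200 UMIs this held for Socs2 (-3.27), Cish (-2.00) and Cux2 (54 and 0 UMIs). The share of all genes past 2-fold is not given for these added classes, so these values describe single genes only.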

How the results depend on the processing

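No paired analysis was possible because each group holds 1 library. Of 230 values of the 10 genes under alternatives, 176 moved by less than their counting interval and 54 by more, and no value of a gene called 2-fold apart changed direction. The members past 2-fold in the large barcodes numbered 4 to 8 across the alternatives, against 6. With a minimum of 2000 UMIs there were 4 of only 7 measured genes, since Socs2, Cish and Igfals then held 6, 5 and 8 UMIs over both libraries. There were 7 with free RNA taken off, where Egfr also passed at -1.01, and 8 among barcodes at or over the median Malat1 share. In that Malat1 group Egfr (-1.08) and Cish (-1.06, -2.19 to 0.24) also passed. Cish held only 10 control and 20 GS-KO UMIs there, and its interval includes 0. The share of all genes past 2-fold is not given for these alternatives. Called EGF family genes numbered 2 of 11 measured in small barcodes against 4 of 10 in large ones. These were 1 higher and 1 lower in small barcodes, and 4 higher and 0 lower in large ones. Called female-biased genes numbered 25 of 29 (2 higher, 23 lower) against 15 of 18 (3 higher, 12 lower). Of all genes, 17.5% were called in either direction in small barcodes and 18.4% in large ones. More genes of both lists were measured in small barcodes. Igf1 ranged from -3.33 to -2.11. Counts under about 40 UMIs limit Cish and the GS-KO values of Socs2 and Igfals in large barcodes.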

Other observations

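Barcodes were also divided by whether they held a UMI of a regulator, a division made after the data were seen. In the control library, 355 thinned large barcodes with a Cux2 UMI had Ghr at 4115 CPM against 3617 CPM in the 1348 without (log2 0.19), Egfr at 0.17, Igf1 at 0.15 and Malat1 at 0.17. Stat5b, Socs2, Cish, Bcl6, Igfals and Igfbp2 ranged from -0.51 (Igfals) to 0.47 (Cish), all with intervals that include 0. In the GS-KO library, 301 barcodes with a Bcl6 UMI had Ghr at 0.10, Malat1 at 0.08 and Igf1 at -0.27 (-0.57 to 0.00) against the 1533 without. The other members found there had intervals that include 0. Barcodes with and without a regulator UMI were not matched for Malat1, so nuclear RNA content was not held equal.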
